A study of Mus musculus with 62 samples.

Results

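White adipose tissue of mice that received non-cachectic melanoma cells (NCAC) was compared with the same tissue of mock-injected mice (Con, called mock here) at 2, 4, 6 and 8 weeks after injection. All 20 NCAC libraries and all 20 mock libraries of the series were taken, 5 per arm and week, so 40 of the 62 libraries enter. The other 22 libraries come from mice that received cachectic melanoma cells (CAC) and are used in a direct comparison of the melanoma arms. Every group consists of female mice 2 months old, and the labels name no other genotype or treatment. The series' design text names NCI Ath/nude mice, an athymic stock that lacks a normal thymus, while all samples carry C57BL6/J as their strain tag, and which of them applies is not settled by the sources used here. The treatment tag reads cachectic melanoma cells for every sample, so the arm was taken from the description field and checked against the titles. The library protocol calls the replicates biological, and neither a name of the melanoma lines nor the size of a tumour was used here.

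In cachexia a patient or animal with cancer loses fat and muscle. White fat stores triglyceride, releases fatty acids through lipases such as Pnpla2 and Lipe, and secretes adipokines such as leptin, whose transcript follows the size of the fat store. In wasting conditions fat tissue can lose these transcripts, gain transcripts of acute-phase proteins and, in places, gain the heat-producing programme marked by Ucp1. A tumour that grows without wasting serves as the control for the mere presence of a tumour, and the comparison asks whether such a tumour alone is accompanied by a change in fat.

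No gene was called between NCAC and mock tissue when the 4 weeks were pooled. Of 14577 genes tested with limma (one arm effect, week as a factor, called at a Benjamini-Hochberg adjusted p under 0.05), 0 passed, which is 0.0%, and the smallest adjusted p was 0.326. At an unadjusted p under 0.05 there were 442 genes, 3.03% of those tested, with 197 higher (1.35%) and 245 lower (1.68%) in NCAC tissue. A test of whether the arm difference varied between weeks also called 0 genes (0.0%), with 130 genes at an unadjusted p under 0.05 (0.892%) and a smallest adjusted p of 1.00. With libraries weighted by their own spread, 13 genes were called for the pooled difference, 8 higher and 5 lower, and 371 for the difference between weeks. The same procedure applied to CAC against NCAC, which shares the 20 NCAC libraries with the comparison against mock, called 1639 genes (11.2%), 848 higher (5.82%) and 791 lower (5.43%) in CAC. That count was 264 with a covariate for bladder-lining (urothelial) transcripts and 82 without the libraries rich in them, and the split was 967 higher and 1538 lower when mitochondrially encoded genes were removed and the rest rescaled.

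**Figure D1:**
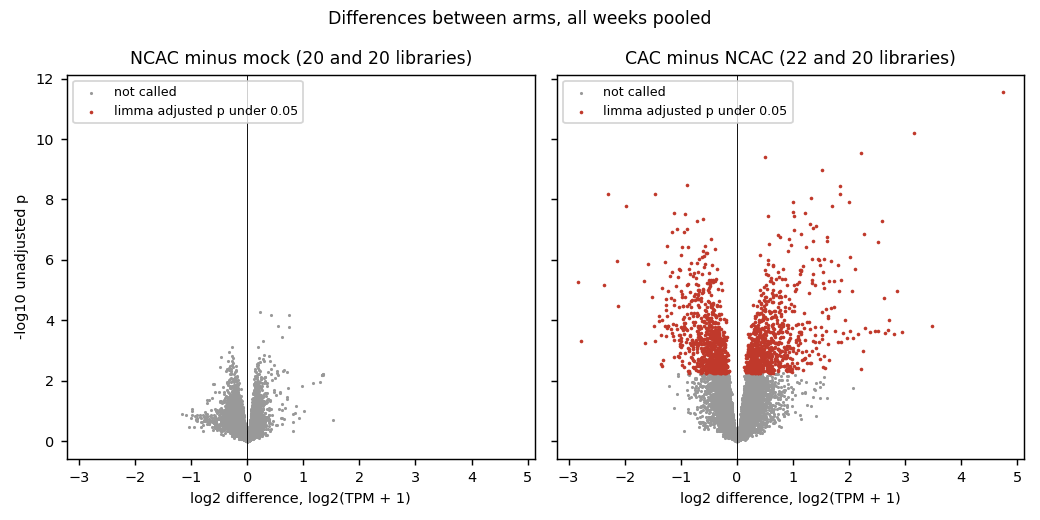
Each point is 1 of 14577 genes, with its log2 difference between arms on the log2(TPM + 1) scale on the x axis and the -log10 of the unadjusted limma p on the y axis. Left, NCAC minus mock, where no gene was called. Right, CAC minus NCAC, where the 1639 called genes are red.

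The null count came with narrow intervals for most genes on the log2(TPM + 1) scale. This scale shrinks both the difference and the interval of genes at low levels, and 10069 of the 14577 genes had a mean of at least 5 TPM. The median standard error of the pooled difference was 0.11 on the log2 scale, against 0.22 for a single week, and the median half-width of a 95% interval was 0.21. For 14218 genes (97.5%) the interval lay within 1 log2 unit of zero on either side, and for 12057 (82.7%) within 0.5. The difference itself was below 0.5 in size for 98.9% of genes, and it reached 1 in 14 genes. In CAC against NCAC it reached 1 in 241 genes, with a median standard error of 0.11. Week accounted for a median of 7.15% of a gene's variance over the 40 libraries, and arm for 1.5%. These are raw shares, and week takes more terms in the model than arm, so their sizes cannot be compared. Whether either exceeds the share that random terms would take was not tested. TPM is a share of all transcripts in a library, corrected for their length, and keeps no depth, so the read number behind a value is not known.

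Leptin, the adipokine that signals the size of the fat store, was measured at a median of 202 TPM in NCAC libraries (lowest 5.82, highest 1670) and 179 TPM in mock libraries (lowest 34.5, highest 760). The arms overlapped, with 11 of 20 NCAC libraries above the mock median. The Lep difference was 0.10 ± 0.46 (log2, SE), with an interval from −0.83 to 1.03, which includes a doubling. By week it was 0.77, 0.23, −0.41 and −0.19. The direct comparison gave a fall of Lep in CAC relative to NCAC tissue, with a log2 difference of −2.83 ± 0.54 (limma adjusted p = 0.000607), a call lost only without the libraries rich in urothelial transcripts among 20 other settings.

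Adipoq (adiponectin, secreted by mature adipocytes) had a median of 4651 TPM in NCAC libraries (2677 to 6978) and 4542 TPM in mock libraries (1789 to 6700). Its difference was 0.16 ± 0.13, with 10 of 20 NCAC libraries above the mock median. The interval for Adipoq ran from −0.11 to 0.43. Between CAC and NCAC it fell by 0.45 on the log2 scale (limma adjusted p = 0.00285), a call lost in 4 of 20 other settings. Across the list of adipocyte identity genes, 15 of 16 members had a positive difference, 0 were called, and the median was 0.18, beside a median of −0.06 over all genes tested. Cidec, a lipid droplet protein, had the highest value in that list (0.29 ± 0.13), and Adig, a lipid droplet protein of adipocytes, the smallest p (0.25 ± 0.10, unadjusted p = 0.0116). Adig ranged from 467 to 882 TPM in NCAC libraries and from 264 to 704 TPM in mock libraries, with 14 of 20 NCAC libraries above the mock median. The list's median was largest at 8 weeks, 0.41, against 0.11, 0.06 and 0.13 at 2, 4 and 6 weeks. It was 0.12 (13 of 16 positive) without the 2 mock libraries that stood apart, described below, and 0.05 (12 of 16 positive) with a covariate for the balance of short and long transcripts.

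Lipid-handling transcripts lay close to mock tissue. Pnpla2, the lipase that starts triglyceride breakdown, had a median of 1745 TPM in NCAC libraries and 1748 TPM in mock libraries, a difference of 0.05 ± 0.10. Lipe, the hormone-sensitive lipase, differed by 0.17 ± 0.10, with a median of 756 TPM against 657 TPM and 15 of 20 NCAC libraries above the mock median. Fasn, fatty acid synthase, differed by 0.03 ± 0.23 around medians of 3508 and 3534 TPM. Scd1, which desaturates fatty acids, differed by −0.09 ± 0.16, Acly, which supplies acetyl-CoA, by −0.20 ± 0.27, and Pck1, which makes glycerol phosphate for triglyceride, by 0.11 ± 0.21. The list medians were 0.05 for lipolysis (9 of 15 positive), 0.05 for triglyceride synthesis (8 of 10), −0.02 for fatty acid synthesis (7 of 16) and −0.03 for fatty acid oxidation (6 of 16). The last 2 and the triglyceride list changed the sign of their median in some of the 22 other settings. None of these members was called, and all 57 list entries had intervals within 1 log2 unit of zero.

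Ucp1, the uncoupling protein of heat-producing adipocytes, was the least settled of these genes. It ranged from 0.211 to 1388 TPM in NCAC libraries (median 23.6) and from 0.0776 to 2046 TPM in mock libraries (median 93.0), so both arms held libraries with almost none and libraries with over 1000 TPM. The pooled difference was −0.79 ± 1.10. The weekly Ucp1 values were 0.04, −3.42, 3.64 and −3.43, with the sign turning between 4, 6 and 8 weeks, and the test across weeks did not call it. All 15 thermogenic genes had negative pooled values with a median of −0.40, and their weekly medians followed the same pattern: 0.18, −1.15, 0.86 and −1.54. Only 6 of the 15 had intervals within 1 log2 unit of zero. In CAC against NCAC, 6 of the 15 were called higher, beside 5.82% of all genes. They include Cidea, a lipid droplet protein of brown fat (2.02, limma adjusted p = 0.00694, a call lost in 5 of 20 other settings, where values ran from 0.46 to 2.64). Ucp1 itself was not (2.08 ± 0.83, limma adjusted p = 0.101).

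**Figure D2:**
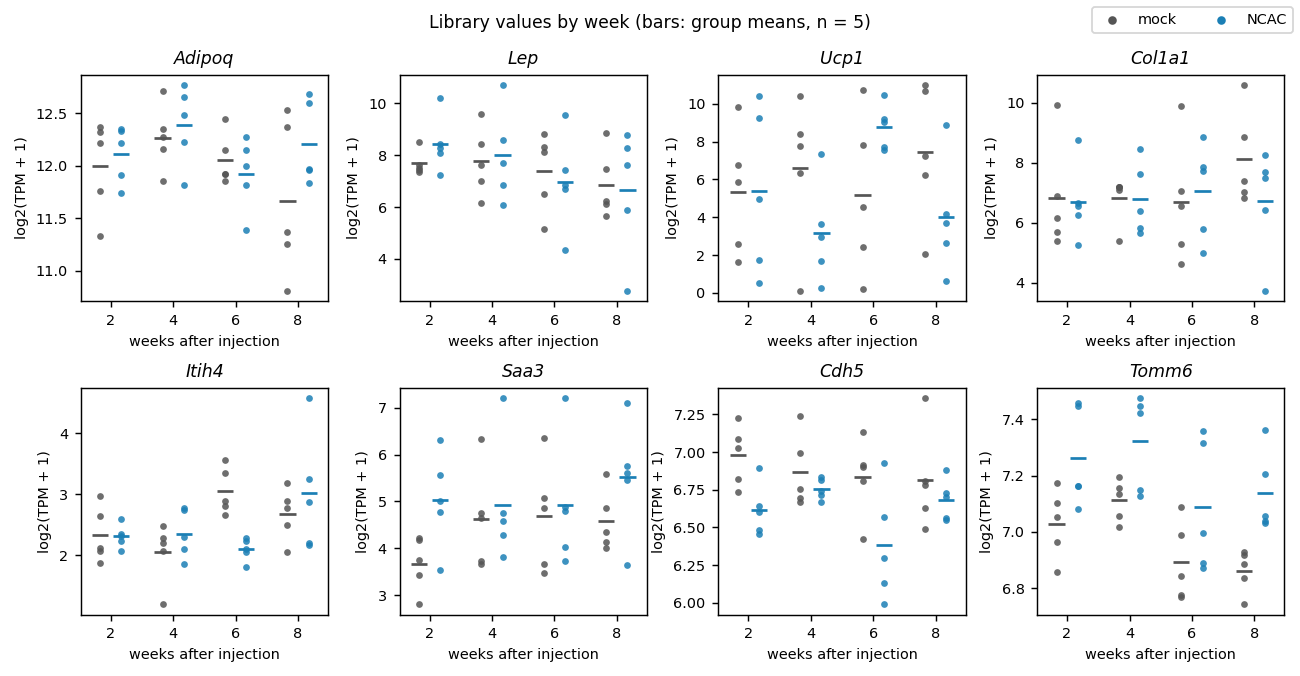
Each point is 1 library, as log2(TPM + 1) on the y axis, by week on the x axis, for mock (grey) and NCAC (blue) tissue, and bars are means of 5 libraries. The ranges of the arms overlap for every gene shown. For Tomm6 18 of 20 NCAC libraries lie above the overall mock median, and for Cdh5 16 of 20 lie below it.

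Acute-phase transcripts encode secreted proteins of the inflammatory response, and many of them were called between the melanoma arms while none was between NCAC and mock tissue. Itih4, a member of the inter-alpha-trypsin inhibitor family, had a median of 3.79 TPM in NCAC libraries (2.51 to 22.9) and 4.92 TPM in mock libraries (1.29 to 10.8), a difference of −0.08 ± 0.17. In CAC against NCAC it rose by 4.75 ± 0.48 (limma adjusted p = 4.04e-08), and it was called under all 20 other settings tried. Hp (haptoglobin, which binds free haemoglobin) differed by 0.33 ± 0.23 between NCAC and mock, with medians of 447 and 468 TPM and 4 NCAC libraries above every mock library. Hp rose by 2.52 ± 0.41 in CAC against NCAC (limma adjusted p = 9.03e-05), a call lost without the libraries rich in urothelial transcripts. Lcn2 (lipocalin 2, which binds bacterial siderophores) had medians of 1.95 and 1.65 TPM, but 1 NCAC library at 140 TPM and 1 mock library at 405 TPM, and the difference was −0.16 ± 0.60. It rose by 2.63 ± 0.54 in CAC against NCAC (limma adjusted p = 0.00136), a call lost in 2 of 20 other settings. Over the 20 acute-phase and IL-6 family genes the median NCAC difference was 0.04 with 11 positive and 0 called, and it was −0.07 without the libraries rich in urothelial transcripts, whereas 13 of the 20 were called higher in CAC against NCAC, beside 5.82% of all genes.

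Saa3, the serum amyloid A gene of fat and macrophages, had the highest positive value of the acute-phase list. Its median was 27.6 TPM in NCAC libraries (10.7 to 146) and 17.3 TPM in mock libraries (5.99 to 80.9), and 15 of 20 NCAC libraries lay above the mock median. The pooled difference was 0.71 ± 0.33, an interval from 0.05 to 1.37 and an unadjusted p of 0.0351, which did not pass over all genes (limma adjusted p = 0.896). Weekly values were 1.37, 0.31, 0.24 and 0.93, positive in 4 of 4 weeks, where 23.0% of all genes kept 1 sign. The value at 4 weeks includes 1 NCAC library at 146 TPM, against 13.1 to 26.0 TPM in the others of its group. Between CAC and NCAC tissue Saa3 was at −0.20 ± 0.40 and was not called (limma adjusted p = 0.786). Over the other settings its NCAC difference ran from 0.38 to 0.97, and none called it.

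Glucocorticoid and fasting genes had 0 calls between NCAC and mock. Fkbp5, a chaperone gene induced by glucocorticoids, had medians of 18.1 TPM (NCAC) and 12.5 TPM (mock) and a difference of 0.26 ± 0.30, with 1.42 at 2 weeks and −0.16, −0.40 and 0.16 later. In CAC against NCAC it rose by 1.55 ± 0.46 (limma adjusted p = 0.0222), a call lost in 7 of 20 other settings. Pdk4, a kinase that limits glucose oxidation in fasting, differed by −0.33 ± 0.32, and Klf15, a fasting-responsive transcription factor, by 0.25 ± 0.11 (unadjusted p = 0.0369). The list of 16 had 12 positive members and a median of 0.11 with 0 called, and the median was −0.07 with 5 of 16 positive without week 2. In CAC against NCAC 6 of the 16 were called higher and 1 lower, beside 5.82% and 5.43% of all genes.

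No immune or stromal gene was called. Adgre1, which encodes the macrophage marker F4/80, had medians of 16.3 and 14.6 TPM and a difference of 0.07 ± 0.24, and 8 of 11 macrophage markers were positive with a median of 0.07. That median was −0.18 with 0 positive without the libraries rich in urothelial transcripts and 0.41 with 10 positive with the covariate for transcript length. Ccl8, a monocyte chemokine, ranged from 1.63 to 98.4 TPM in NCAC and from 2.70 to 212 TPM in mock libraries and differed by −0.09 ± 0.46, while it rose by 2.59 ± 0.39 in CAC against NCAC (limma adjusted p = 3.14e-05). Interferon-response genes had a median of −0.17 with 2 of 20 positive, beside −0.06 and 26.2% positive over all genes. None was called, and all 20 intervals lay within 1 log2 unit of zero. The list's median was −0.10 with 3 of 20 positive without the 2 mock libraries that stood apart. With the covariate for transcript length it was −0.03 with 7 of 20 positive. Col1a1, the main chain of collagen I, ranged from 12.2 to 464 TPM in NCAC libraries and from 23.5 to 1548 TPM in mock libraries, and differed by −0.29 ± 0.47. All 24 extracellular matrix genes were negative with a median of −0.18, but the median was 0.05 with 18 of 24 positive once the 2 mock libraries that stood apart were left out, and 0.45 with all 24 positive with the covariate for transcript length. The Col1a1 difference was 0.05 and 0.72 in these fits. In CAC against NCAC 13 of the 24 were called lower, beside 5.43% of all genes, and Col1a1 fell by 1.33 (limma adjusted p = 0.0350), a call lost in 9 of 20 other settings and kept in 30 of 42 fits that left out 1 library.

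Endothelial genes had small negative differences in NCAC tissue. All 10 markers were negative, with a median of −0.20, 0 called and 6 at an unadjusted p under 0.05, where 1.68% of all genes were lower at that limit. Of all genes 73.8% were negative, with a median of −0.06, and lymphatic, fibroblast and smooth muscle markers had medians of −0.19, −0.17 and −0.59. Without the 2 mock libraries that stood apart the lymphatic, fibroblast and smooth muscle medians were 0.01, 0.03 and −0.28. With the covariate for transcript length they were 0.51, 0.36 and 0.59. Cdh5, which encodes the junction protein VE-cadherin, had a median of 99.7 TPM in NCAC libraries (62.6 to 120) and 112 TPM in mock libraries (84.8 to 163). Its difference was −0.27 ± 0.08 (unadjusted p = 0.00154, limma adjusted p = 0.896), with weekly values of −0.36, −0.12, −0.45 and −0.13. Kdr, a receptor for VEGF, had medians of 43.7 and 52.4 TPM and a difference of −0.26 ± 0.08, and 17 of 20 NCAC libraries lay below the mock median. Pecam1, an adhesion molecule of endothelial junctions, differed by −0.24 ± 0.09 and Flt1, another VEGF receptor, by −0.18 ± 0.07. Every one of the 10 intervals lay within 1 log2 unit of zero, and the list's median was negative in all 22 other settings that did not leave out 1 library, between −0.26 and −0.08, with 2 of 10 members positive under the covariate for transcript length. In bulk tissue fewer cells of a type and less RNA per cell cannot be told apart. In CAC against NCAC 2 of the 10 markers were called higher, beside 5.82% of all genes, and the list's median was 0.26. Flt1 was called higher in CAC by 0.33 (limma adjusted p = 0.00555), a call kept in 15 of 20 other settings. Neither Cdh5 nor Kdr was called between CAC and NCAC (0.01 ± 0.08 and −0.13 ± 0.09).

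Other gene groups held no called member either. In the complement list 8 of 15 genes were positive, and Cfd (adipsin, a complement protease that fat secretes in large amounts) had a median of 27655 TPM in NCAC libraries and 23607 TPM in mock libraries, a difference of 0.27 ± 0.14 (unadjusted p = 0.0577). Cholesterol synthesis genes had a median of −0.11 with 4 of 17 positive, and Sqle, squalene epoxidase, differed by −0.24 ± 0.13. Adipokine and fat expansion genes had a median of 0.11 with 7 of 12 positive, but −0.21 with 3 of 12 positive without the libraries rich in urothelial transcripts. Rbp4, the retinol carrier, was at 0.18 ± 0.12. The antigen presentation list had a median of −0.02 and included H2-D1, a class I molecule, at 0.22 ± 0.21, while Rsad2, an antiviral enzyme of the interferon list, was at −0.23 ± 0.13. Chemokine genes had a median of −0.09, with Cxcl12, which retains blood-forming cells, at −0.24 ± 0.14. In the autophagy list Map1lc3a, a protein of the autophagosome, was at 0.19 ± 0.10 (unadjusted p = 0.0558), with 14 of 20 NCAC libraries above the mock median and a list median of −0.01. The unfolded protein list had 8 of 15 positive members and a median of 0.00, and Xbp1, its transcription factor, was at 0.09 ± 0.10. The medians of the complement, antigen presentation, chemokine, autophagy and unfolded protein lists changed sign in some of the 22 other settings.

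**Figure D3:**
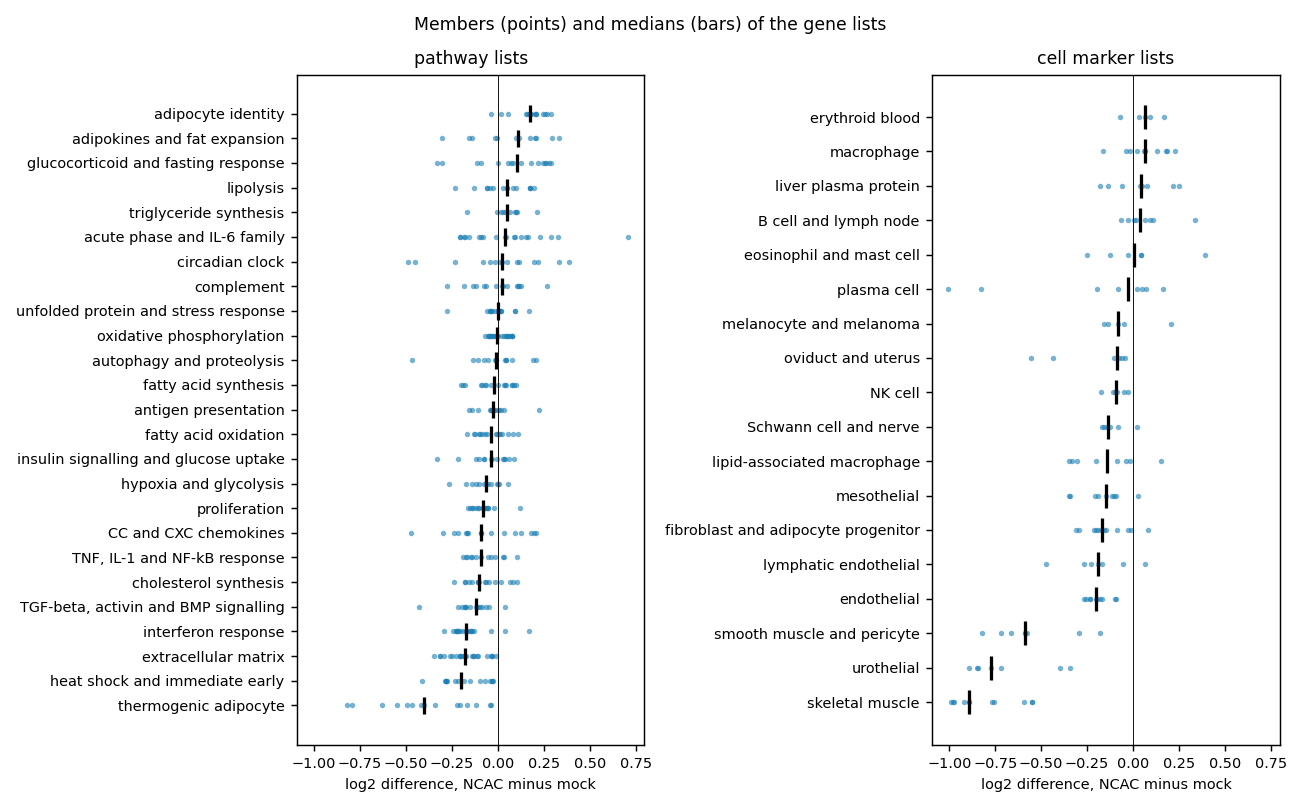
Each blue point is 1 gene of a list, with its pooled log2 difference (NCAC minus mock) on the x axis, and the black bar is the list's median. Adipocyte identity lies highest among the pathway lists at 0.18, and the lowest medians are those of the skeletal muscle (−0.89), urothelial (−0.77), smooth muscle (−0.59) and thermogenic (−0.40) lists, with 0 called members in any list.

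None of the 10 positive differences with the smallest p, among genes whose mean reached 10 TPM in an arm, was called. Tomm6, a small subunit of the complex that imports proteins through the outer membrane (GRCm38 chromosome 17, 47686646 to 47688386), had a median of 142 TPM in NCAC libraries (116 to 177) and 125 TPM in mock libraries (106 to 146). Of the 20 NCAC libraries, 18 lay above the mock median and 9 above every mock library. The Tomm6 difference was 0.23 ± 0.05, with weekly values of 0.23, 0.21, 0.19 and 0.28 (unadjusted p = 5.16e-05, limma adjusted p = 0.326). Fcor, a Foxo1 corepressor of adipocytes (chromosome 8, 3671188 to 3672362), had medians of 178 and 139 TPM and a difference of 0.43 ± 0.10, with 19 of 20 NCAC libraries above the mock median. Hist1h2bk, a histone H2B gene, had medians of 18.2 and 11.7 TPM and a difference of 0.62 ± 0.16. Pet100, an assembly factor of cytochrome oxidase, differed by 0.29 ± 0.07, and Tomm7, another import subunit, by 0.20 ± 0.05. The complex I genes Ndufb3, Ndufa7 and Ndufa2 differed by 0.21, 0.23 and 0.19, the ATP synthase gene Atp5k by 0.27 and the mitochondrial ribosome gene Mrpl53 by 0.17. All 10 had the same sign in 4 of 4 weeks, beside 23.0% of all genes, but they were chosen on the same libraries, so this is no separate support. With library weights Tomm6, Fcor, Hist1h2bk, Pet100 and Mrpl53 were among the 13 called, at adjusted p from 0.0213 to 0.0293. Ndufb3 was the only one of the 10 called between CAC and NCAC, lower in CAC by 0.25 (limma adjusted p = 0.0225). That call was kept in 13 of 20 other settings.

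Oxidative phosphorylation genes, which encode the respiratory chain, lay close to zero. In the list of 23 genes 11 were positive, beside 26.2% of all genes, the median was −0.00, and the values ran from −0.07 (Cycs, cytochrome c) to 0.08 (Cox5a, a cytochrome oxidase subunit). The sign depended on the scaling: 22 of 23 were positive with median-ratio rescaling (median 0.05) and 4 of 23 with a covariate for transcript length (median −0.08). All 23 intervals lay within 1 log2 unit of zero.

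The difference between arms moved with transcript length. The transcripts of 9 of the 10 genes named above were between 371 and 763 bases at the median of their annotated isoforms (Tomm7 had 1125), and across all genes the difference moved with length. Genes under 500 bases had a median difference of 0.02 (484 genes), those from 500 to below 1000 bases −0.04, those from 1000 to below 2000 bases −0.06, those from 2000 to below 4000 bases −0.09 and those of 4000 bases or more −0.11 (938 genes). The gap between short transcripts (under 1000 bases) and long ones (4000 bases or more) in mean log2(TPM + 1) was 0.81 to 1.16 in NCAC libraries (median 1.02) and 0.71 to 1.16 in mock libraries (median 0.93), and its mean was higher in NCAC tissue in each week. A covariate for this gap was added after the data were seen. The median of all genes then moved from −0.06 to 0.09, the Tomm6 difference to 0.19 and that of Fcor to 0.26, and 0 genes were called.

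The 10 negative differences with the smallest p were not called either. Rgs4, a regulator of G-protein signalling (GRCm38 chromosome 1, 169741477 to 169747642), had a median of 14.2 TPM in NCAC libraries (8.95 to 24.5) and 18.4 TPM in mock libraries (11.6 to 29.4), and 18 of 20 NCAC libraries lay below the mock median. Its difference was −0.32 ± 0.09, with weekly values of −0.38, −0.26, −0.34 and −0.32 (unadjusted p = 0.00110). Rgs5, a pericyte gene, differed by −0.29 ± 0.10, Abcc9, a regulatory subunit of potassium channels in mural cells, by −0.27 ± 0.08, and Cd93, a lectin-like receptor of endothelium, by −0.32 ± 0.11. Dysf (dysferlin, a membrane repair protein) differed by −0.27 ± 0.08, with 1 of 20 NCAC libraries above the mock median. Clcn6 (an endolysosomal chloride transporter), Arap3 (a GTPase-activating protein) and Ets2 (a transcription factor) differed by −0.30, −0.20 and −0.36, and Cdh5 and Kdr complete the set. Ets2 was the only one of these 10 called between CAC and NCAC, higher in CAC by 0.74 ± 0.13 (limma adjusted p = 0.000400). Among 20 other settings that call was lost only without the libraries rich in urothelial transcripts. With the covariate for transcript length the Rgs4 difference was −0.16, that of Ets2 −0.13, that of Cdh5 −0.22 and that of Kdr −0.23. Rgs4 and Abcc9 were among the 13 genes called with library weights (limma adjusted p = 0.0213 and 0.0264).

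The spread among libraries was wide within each arm. The first principal component of the 40 libraries held 43.5% of the variance and ran from −65.4 to 62.4 in NCAC and from −107 to 63.1 in mock tissue. Its low end was led by the smooth muscle genes Actg2 and Cnn1 with Pcp4 and the lymphoid chemokine Ccl21a. The high end was led by the thermogenic genes Ucp1 and Elovl3, followed by Tgm3 and the thermogenic gene Cidea. Mock replicate 2 at 8 weeks (−107) and mock replicate 5 at 6 weeks (−99.2) stood apart from all other libraries. In all, 73.8% of genes had a negative difference, with a median of −0.06, and without these 2 libraries the share of positive values went from 26.2% to 49.3% and the median to −0.00, again with 0 called. The second component held 13.5% and ran from −41.4 to 37.4 in NCAC and from −39.6 to 38.9 in mock tissue. Its high end was led by Pcp4, Ucp1, Actg2 and Cnn1, so smooth muscle and thermogenic genes lay at the same end there.

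**Figure D4:**
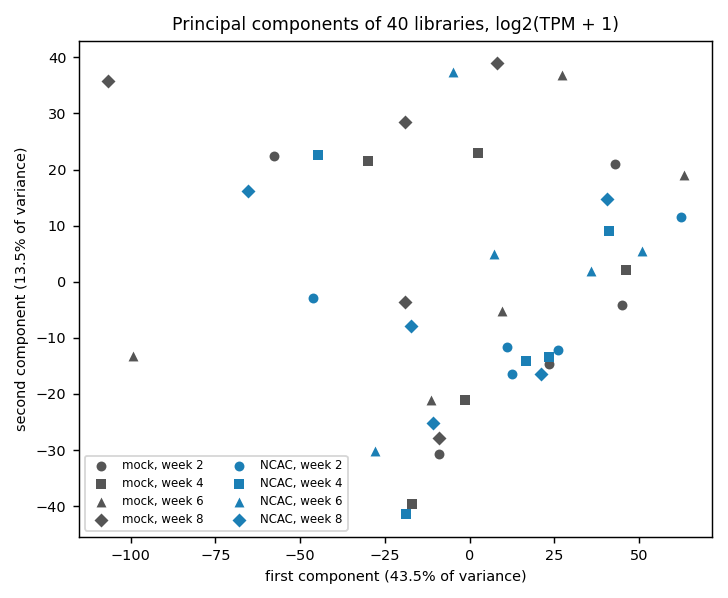
Each point is 1 of 40 libraries placed by the first component (x axis, 43.5% of variance) and the second (y axis, 13.5%), with colour for arm and shape for week. The arms intermix, and 2 mock libraries lie at −107 and −99.2 on the first component.

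Markers of neighbouring tissues varied with few libraries. Summed skeletal muscle markers ranged from 8.47 to 636 TPM in NCAC and from 8.77 to 4523 TPM in mock libraries, and all 11 markers had negative differences (median −0.89), none with an interval within 1 log2 unit of zero. Smooth muscle and pericyte markers summed to 262 to 6395 TPM in NCAC and 323 to 14797 TPM in mock libraries, with a median difference of −0.59, which was 0.59 with the covariate for transcript length. Urothelial markers summed to over 100 TPM in 2 NCAC, 4 mock and 13 CAC libraries, and their median difference between NCAC and mock was −0.77. Their part in the other differences of NCAC tissue was not tested beyond the covariate and the omission of those libraries, both of which left 0 genes called. T cell markers were scarce in both arms, with 6 of 8 below the filter, although Trac, a T cell receptor chain, reached 10.9 TPM in an NCAC library and 5.85 TPM in a mock library. Of the melanocyte genes, Tyrp1 did not exceed 0.065 TPM in the 40 libraries. Pmel reached 3.33 TPM, Mlana 10.6 TPM and Mitf 17.8 TPM, each in an NCAC library. Dct reached 3.15 TPM, Sox10 2.70 TPM and S100b 30.8 TPM, each in a mock library. Of the 5 melanocyte genes tested, 1 had a positive difference, and their median was −0.08. Mitochondrially encoded genes took 20.1% to 44.4% of TPM in NCAC and 17.2% to 42.0% in mock libraries, and 11962 to 14395 genes reached 1 TPM in a library.

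Several of the largest pooled differences came with a step between libraries. Among the 14 genes at 1 or more in size, named after their values were seen, 7 were Cwc22, a splicing factor (GRCm38 chromosome 2, 77881159 to 77946375), and the predicted genes Gm13691, Gm13693, Gm13694, Gm13696, Gm13697 and Gm13698 on the same chromosome. Cwc22 had a median of 9.08 TPM in NCAC and 7.83 TPM in mock libraries, yet it was at 77.1 to 243 TPM in 14 libraries and at no more than 16.9 TPM in the others. Those 14 were 8 of 20 NCAC, 1 of 20 mock and 5 of 22 CAC libraries, with NCAC libraries in each of the 4 weeks. The Cwc22 difference was 1.30 ± 0.49, an interval from 0.32 to 2.28 (unadjusted p = 0.0107, limma adjusted p = 0.896). The genotype of the mice at this locus was not analysed here, so a difference between mice and a difference between arms cannot be told apart for this gene. The same 14 libraries were high for each of the 6 predicted genes, at 6.94 to 26.7 TPM against at most 0.212 TPM elsewhere. The annotated transcripts of the 6 are identical over 2493 bases, and 62.8% of their stretches of 31 bases also occur in annotated Cwc22 transcripts, so reads cannot be assigned among them with certainty and the 7 genes amount to 1 observation. Such a step was seen for Rps26-ps1 too, a ribosomal pseudogene, at 223 TPM or more in 8 NCAC, 4 mock and 6 CAC libraries and at no more than 7.88 TPM in the rest, with a difference of 1.53 ± 1.18. The pseudogene H2-Ea-ps (1.01 ± 0.60) and the histone gene Hist2h2aa2 (1.17 ± 0.44) make up the higher side. On the lower side were Sprr1a (−1.16 ± 0.75) and Cdsn (−1.10 ± 0.71), genes of cornified epithelium, Pcp4 (−1.04 ± 1.07), a calmodulin-binding protein, and Ighg1 (−1.01 ± 0.71), an antibody heavy chain.

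**Figure D5:**
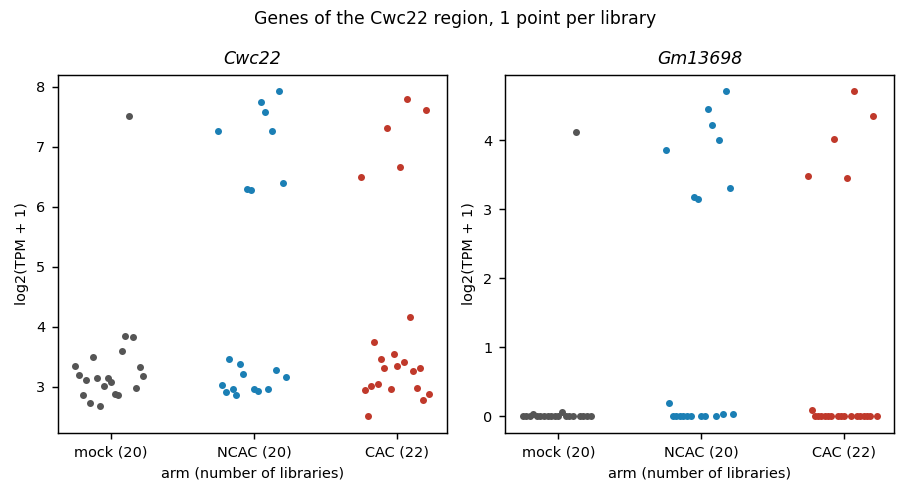
Each point is 1 library, as log2(TPM + 1) on the y axis, by arm on the x axis, for Cwc22 and for Gm13698, whose annotated transcript shares sequence with it. In both genes 8 of 20 NCAC, 1 of 20 mock and 5 of 22 CAC libraries form a separate upper set.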

How the data were processed

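RNA of 62 mouse white adipose tissue samples was extracted with Trizol and sequenced from stranded TruSeq mRNA libraries, per the labels' protocols. The authors deposited 1 table of TPM for 47643 gene symbols. The submitters' processing notes name the mouse build mm10. Of aligner, counting tool and annotation, none is given in the sources used here. Depth is unknown, so no counting interval is given.

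The tests covered 14577 genes, those whose mean over the 62 libraries reached 0.5 TPM, on log2(TPM + 1), so differences of low genes are understated. The model was limma 3.58.1 in R 4.3.3 (empirical Bayes with trend and robust prior) with week as a factor, two-sided, and Benjamini-Hochberg adjustment over all genes. Errors are limma standard errors. Differences by week come from a fit of the 8 groups and carry no call. CAC against NCAC used the same model on 42 libraries. Positions and transcript lengths come from GENCODE M21 (GRCm38), matched on symbol, with a length for 14096 of the tested genes. In simulated data for the pooled NCAC comparison, over 14577 genes, 73 of 100 genes changed by 0.5 and 96 of 100 changed by 1 were recovered, and 12 of 181 calls were unchanged genes. The simulated noise was drawn separately for each gene, without a week effect, and the changed genes were not taken from those with low levels. The real libraries vary together over many genes, so these rates need not hold for them.

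The named genes are the 10 higher and 10 lower with the smallest p at a mean of 10 TPM or more in an arm (predicted, Rik and mitochondrially encoded genes left out), the member with the smallest p of each list, and a fixed set (Lep to Adgre1). Other list members and the 14 largest differences were picked with their values in view. The members and lists were chosen with earlier results of these data known. Lists were described by counts and medians without a test. Alternatives covered the pseudocount (0.1 and 5), the filter, scaling, weights, replicate block, tissue covariates, omitted weeks and omission of each library.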

Additional observations from a re-analysis of the deposited data

Results flagged for a closer look

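In groups of 5 libraries a sample was singled out where its gap to the nearest other sample took an unusually large part of the group's range. This was examined for 19 genes and 2 library measures in 8 groups, and 23 of 168 cases (13.7%) were singled out. For values with a normal spread the rate would be about 1 in 20. Such a spread was not checked, and several cases share a library, so the excess over that rate was not tested. No cause was tested.

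Mock replicate 2 at 8 weeks, a library apart on the first component, was low for the lipase gene Pnpla2 (900.01 TPM against 1520 to 1839 in the others of its group) and the desaturase gene Scd1 (6385 TPM against 12128 to 13337), and high for Lcn2 (405 TPM against 1.44 to 7.02). Mock replicate 5 at 6 weeks, the other such library, was low for Pnpla2 (1208 TPM against 1905 to 2203).

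Among the remaining mock libraries, replicate 1 at 2 weeks was high for Lcn2 (10.5 TPM against 0.526 to 1.41) and Ccl8 (79.9 TPM against 4.69 to 7.36), replicate 2 at 2 weeks for Lep (359 TPM against 161 to 196) and replicate 5 at 2 weeks for Pdk4 (214 TPM against 39.2 to 46.4). At 4 weeks mock replicate 2 was high for Lcn2 (166 TPM against 0.675 to 3.68), and mock replicate 5 for Scd1 (16646 TPM against 9876 to 10707) and Hp (717 TPM against 383 to 455). Mock replicate 3 at 4 weeks was low for Col1a1 (40.4 TPM against 135 to 146) and had the largest gap between short and long transcripts of its group (1.16 against 0.92 to 0.94 on the log2 scale).

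Among NCAC libraries, replicate 3 at 4 weeks was high for Saa3 (146 TPM against 13.1 to 26.0) and Lcn2 (140 TPM against 1.04 to 2.78). NCAC replicate 2 at 4 weeks was low for Fasn (1047 TPM against 3808 to 5159) and Acly (436 TPM against 1305 to 1936). At 6 weeks NCAC replicate 3 was high for Hp (1120 TPM against 347 to 465.6) and low for Azgp1, which encodes a lipid-mobilizing factor (0.601 TPM against 2.99 to 4.32). At 8 weeks NCAC replicate 3 was high for Azgp1 (17.9 TPM against 0.148 to 1.40) and Pdk4 (134 TPM against 39.7 to 52.7), and replicate 1 was low for Lipe (518 TPM against 770 to 844). NCAC replicate 1 at 2 weeks had 44.4% of its TPM in mitochondrially encoded genes, against 27.6% to 32.3% in its group.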

How the results depend on the processing

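The pooled NCAC difference and its variation between weeks gave 0 called genes under every setting run and in each of 40 fits that left out 1 library, except with library weights (13 and 371 called). The CAC against NCAC count of 1639 was 2505 without mitochondrially encoded genes, 3125 with median-ratio rescaling, 3525 with library weights, 264 with a urothelial covariate, 82 without urothelial libraries, 6871 with a stromal covariate, 477 with a thermogenic covariate, 2906 with the covariate for transcript length, 334 without week 6 and 282 without week 8, and 1197 to 1875 when 1 library was left out. The cause was not tested. Of 85 named genes, 21 changed sign with the length covariate and 8 without the 2 mock libraries apart, both chosen after seeing the data. Library weights called 7 of the 85.

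Replicate numbers did not pair the samples: deviations of same-numbered NCAC and mock libraries correlated from −0.65 to 0.43, over 0.1 in 3 of 20 pairs, and 3 of 20 NCAC libraries correlated best with their own number. With a replicate block 0 genes were called for the pooled difference, 0 between weeks and 1058 in CAC against NCAC. Depth is unknown, and the intervals rest on the spread between libraries.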

Other observations

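Core clock genes drive daily rhythms, and none was called. Arntl, the activator of the clock, had a log2 difference in NCAC tissue of −0.49 ± 0.28, and its partner Npas2 of −0.45 ± 0.23 (unadjusted p = 0.0539), while the output gene Ciart was at 0.39 ± 0.31. Of the 15 clock genes 9 were positive, and the list's median was 0.62 at 2 weeks and −0.05, −0.24 and 0.05 at the later weeks. The pooled median was 0.02, and −0.06 without week 2.

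Heat shock and immediate early genes, which respond within minutes to handling and stress, were negative in 16 of 16 with a median of −0.20. Fos, the best known of them, had the lowest value, −0.41. Without the 2 mock libraries apart the list's median was −0.03 with 5 of 16 positive, and with the covariate for transcript length 0.15 with 15 of 16 positive. Ighg1 had a higher mean in NCAC libraries (76.3 ± 317 TPM, SD, n = 20) than in mock libraries (32.9 ± 72.1 TPM), yet a negative log2 difference, with 1 NCAC library at 1421 TPM.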
